A study of Homo sapiens with 6 samples.

Results

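The 39 protein-coding HOX genes of the HOXA, HOXB, HOXC and HOXD clusters were described in A549 cells with reduced METTL3. They were taken as every row of the deposited count table whose symbol is HOX, a cluster letter and a number, which gave 39 of 57781 listed genes, with the antisense transcripts left out. A549 is an established human lung adenocarcinoma line, labelled as NSCLC, and METTL3 is the catalytic subunit of the complex that writes N6-methyladenosine (m6A) on mRNA. RNA-seq was performed on 3 libraries from vector-control cells, whose genotype is given as WT, and on 3 libraries from cells with METTL3 knockdown by short hairpin RNA (shMETTL3, here the knockdown libraries). All 6 libraries came from the same line grown in the same medium, no other agent is listed, and neither the labels nor the description of the sequencing says that the libraries of a group were grown as separate cultures, although the study's general statement on statistics speaks of independent repeats. The p-values thus measure the spread between these libraries only. The count columns number the knockdown libraries as sh1 to sh3, which may mean replicates of 1 hairpin or different hairpins, and if the latter, their SD and the fits that leave out 1 of them also cover differences between hairpins.

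HOX genes encode homeodomain transcription factors that give cells along the body axis their positional identity. They lie in clusters on separate chromosomes, and their order along each cluster follows the order of their expression from head to tail. Genes at matching positions form paralogue groups, with group 1 expressed most anteriorly and group 13 most posteriorly. In the developing lung, genes of the anterior and central groups are in use, among them HOXA5, HOXB3 and HOXB5, whereas group 13 genes act in limb ends, hindgut, urogenital tract, prostate and hair follicle. Below, groups 1 to 3 are called anterior, groups 4 to 8 central and groups 9 to 13 posterior.

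What the members share is the homeobox. All 39 members contain, once, a stretch coding for the core of the homeodomain's recognition helix, which reads DNA bases. For 5 members on which the results turn, 54 coding bases of this helix are shown 5′ to 3′ from the GRCh37 genome, with the 6 core codons in capitals.
HOXA13: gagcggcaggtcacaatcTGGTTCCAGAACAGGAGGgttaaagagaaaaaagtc
HOXB13: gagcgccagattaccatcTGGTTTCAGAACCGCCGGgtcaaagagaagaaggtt
HOXC13: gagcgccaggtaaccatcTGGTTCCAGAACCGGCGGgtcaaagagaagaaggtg
HOXB6: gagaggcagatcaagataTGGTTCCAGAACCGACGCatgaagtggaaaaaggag
HOXC6: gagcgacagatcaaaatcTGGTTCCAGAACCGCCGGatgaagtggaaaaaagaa
The HOXB13 and HOXC13 stretches differed at 5 of the 54 bases, HOXA13 differed from them at 12 and 9 bases, and HOXB6 and HOXC6 differed at 8 bases. Between HOXB6 and the 3 group 13 genes shown, 16 or 17 bases differed. No annotated exon sequence of 50 bases was common to any pair of group 13 genes, and HOXB3 with HOXD3 was the one pair of members on different chromosomes that had such a sequence in common.

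The libraries held 14931426 to 19108928 counts, of which 2456 to 3113 per library fell on HOX genes. Levels are given as CPM, scaled with edgeR's TMM factors for library composition, and 3 counts in a library correspond to 0.149 to 0.189 CPM, a floor that covers counting error only. METTL3 had 887, 846 and 808 counts in vector replicates 1 to 3, and 364, 399 and 307 counts in shMETTL3 replicates 1 to 3, which is 38.8% of the vector level in CPM. Its log2 fold change was -1.36 with a standard error of 0.07 (p = 0.1 in an exact permutation test, two-sided, which cannot go lower with 3 libraries a group). Keratin and other epithelial markers were abundant, but their summed level went from 9959 to 10620 CPM in the vector libraries to 5145 to 5593 CPM in the knockdown libraries, with 5 of 6 lower and KRT7 higher. Of the 5 alveolar markers, SFTPA1 was at 0 throughout, NKX2-1 and SFTPC had no more than 6 counts in any library, NAPSA had 25 to 35 counts in every library and was not called, and SFTPB rose from 1 to 3 counts to 11 to 24 counts. Among markers of other cell types, PTPRC, CD3E, VWF, KDR and COL1A2 had no more than 3 counts in any library, and 1 marker each of leukocytes (CD14), endothelium (CDH5) and fibroblasts (COL1A1) rose, which took the summed leukocyte markers from 0.299 to 0.980 CPM up to 5.83 to 6.73 CPM, the endothelial ones from 0 to 0.122 CPM up to 1.39 to 1.95 CPM and the fibroblast ones from 6.68 to 9.67 CPM up to 13.9 to 14.6 CPM. SFTPB, CD14 and CDH5 passed the filter on low counts only through their knockdown libraries. The part of these marker changes in the HOX results was not tested, and in such bulk samples fewer cells of a type cannot be told apart from less RNA per cell.

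HOX transcripts changed in both directions after METTL3 knockdown. The posterior genes HOXA13, HOXB13 and HOXC13 rose by at least 1 on the log2 scale, as did HOXD10, which passed the filter on low counts only through its knockdown libraries, whereas the posterior gene HOXB9 fell by 0.57. The central gene HOXB6 fell by more than 1, and the anterior genes HOXA3 and HOXB3 fell by less. The 12 tested central members did not share a direction, with 2 called higher, 3 lower, 7 not called and a median of 0.02. Summed over all 39 members, HOX transcripts stood at 159.5, 162.4 and 171.5 CPM in the vector libraries and at 145.0, 155.0 and 154.4 CPM in the knockdown libraries. The sum was thus lower in every knockdown library, but this direction rests on the scaling. With library totals alone the sums were 152 to 157.8 CPM with vector and 155.4 to 164.5 CPM after knockdown, and the groups overlapped.

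Of the 39 members, 24 had enough counts to be tested by edgeR's quasi-likelihood test, and 15 of these were called changed at an adjusted p under 0.05 (Benjamini-Hochberg over all 15125 genes tested). That share, 62.5%, was near the 66.6% of all tested genes that were called. The called members were 8 higher and 7 lower, while 33.7% of all tested genes were called higher and 32.9% lower. At a change of at least 1 on the log2 scale, 4 members were higher and 1 was lower, against 10.2% and 7.42% of all tested genes. Both counts of higher members include HOXD10, which passed the filter on low counts only through its knockdown libraries. The 3 knockdown values lay outside the range of the 3 vector values for 17 of the 24 members and for 69.5% of all tested genes. The median log2 fold change of the 24 members was 0.04, or 0.03 without HOXD10, against 0.00 for all tested genes. Without shMETTL3 replicate 2, the members called higher were 5 in place of 8, because HOXC4, HOXC6 and HOXC10 no longer passed, and the number called lower stayed at 7. Scaling by library totals moved the median log2 fold change to 0.18 for all tested genes and to 0.22 for the HOX genes, and 65.8% in place of 50.6% of all calls were then higher.

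The members are given next by position, with no test of a difference between positions. Over all tested genes, 33.7% were called higher and 32.9% lower. The called shares were 75% of tested anterior, 41.67% of central and 87.5% of posterior members, against 66.6% of all tested genes. In the anterior groups, 3 of 4 tested members fell and none rose, with a median log2 fold change of -0.49. The 12 tested central members were split, with 2 higher, 3 lower and a median of 0.02. The 2 higher central calls, HOXC4 and HOXC6, were both lost without vector replicate 2 and without shMETTL3 replicate 2, and 1 of them without each of vector replicate 1, vector replicate 3 and shMETTL3 replicate 3. In the posterior groups, 6 of 8 tested members rose and 1 fell, with a median of 0.92. Of these 8, HOXD10 passed the filter on low counts only through its knockdown libraries, and without it the median was 0.81. Posterior genes held 22.2% to 23.7% of all HOX counts with vector and 34.6% to 36.0% in the knockdown libraries, and the groups did not overlap. Divided by exonic length, the posterior share was 21.9% to 23.8% in the vector and 32.2% to 33.9% in the knockdown libraries.

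All 3 tested members of group 13 rose, and positions given from here on are those of GRCh37. HOXB13, at chr17:46802125-46806112 on the minus strand and known for its role in the prostate and lower spine, had 24, 28 and 22 counts with vector and 138, 111 and 110 counts in the knockdown libraries. Its level went from 1.45 ± 0.192 CPM (SD, n = 3) to 6.53 ± 0.872 CPM (SD, n = 3), with every knockdown library well above every vector library. The log2 fold change was 2.16 with a standard error of 0.19 (edgeR, Benjamini-Hochberg adjusted p = 8.62e-11), the largest among the tested HOX genes.

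HOXA13, at chr7:27233122-27239710 on the minus strand, acts in limb ends and the urogenital tract. It had 28, 24 and 17 counts with vector and 93, 112 and 80 counts in the knockdown libraries, or 1.35 ± 0.270 CPM (SD, n = 3) and 5.14 ± 0.396 CPM (SD, n = 3). The 3 knockdown libraries were close to each other, and each was above all 3 with vector. The log2 fold change was 1.92 with a standard error of 0.20 (edgeR, Benjamini-Hochberg adjusted p = 2.53e-09).

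HOXC13, at chr12:54332615-54340328 on the plus strand, controls hair keratin genes in the follicle. Per exonic kilobase it stood at 3.47 CPM with vector, against 0.478 CPM for HOXB13 and 0.265 CPM for HOXA13, and by the mean of both groups it was the highest of the HOXC cluster, although HOXC9 was slightly higher with vector, at 3.53 CPM per kb. It had 144, 136 and 137 counts with vector and 326, 321 and 275 counts in the knockdown libraries. In CPM this was 8.18 ± 0.192 (SD, n = 3) against 16.7 ± 0.666 (SD, n = 3). The spread within each group was small beside the difference, which was 1.03 on the log2 scale with a standard error of 0.10 (edgeR, Benjamini-Hochberg adjusted p = 4.80e-10). HOXD13, the remaining member of the group, had between 1 and 3 counts in every library and was not tested. Together, the 4 genes stood at 10.9 to 11.3 CPM in the vector and at 27.1 to 29.3 CPM in the knockdown libraries.

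The 100 bases before the transcription start of HOXA13 are shown 5′ to 3′ on the gene's strand of GRCh37, with each CG dinucleotide in capitals, because this start was the richest in CG among the HOX genes called higher.
HOXA13, chr7:27239711-27239810, minus strand: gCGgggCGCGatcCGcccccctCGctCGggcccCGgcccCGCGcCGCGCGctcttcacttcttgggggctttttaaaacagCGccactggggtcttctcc
This window held 13 CG dinucleotides, and the 250 bases before the start held 40. The median over such windows of 250 bases was 22 for 13447 tested genes with a value (range 0 to 59) and 18 for the 8 HOX genes called higher, which ranged from 3 to 40. It was 12 for the 7 called lower and 13 for the 9 that were tested and not called, with a range of 8 to 28 in both. These are descriptions of letters, and DNA methylation was not measured here.

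All 3 members of group 10 were called higher, but HOXD10 passed the filter on low counts only through its knockdown libraries. HOXD10, at chr2:176973518-176984665 on the plus strand and active in limb and motor neuron patterning, was near the floor in the vector libraries, with 4, 14 and 4 counts, and had 37, 38 and 23 counts in the knockdown libraries. Its level was 0.435 ± 0.349 CPM (SD, n = 3) against 1.75 ± 0.264 CPM (SD, n = 3), and vector replicate 2 stood above the other two vector libraries. The log2 fold change was 2.01 with a standard error of 0.38 (edgeR, Benjamini-Hochberg adjusted p = 3.68e-05). When 1 library was left out it ranged from 1.68 to 2.88, with the highest value without vector replicate 2. HOXA10, which patterns the uterus, had 19 to 30 counts in the vector and 37 to 54 in the knockdown libraries, a log2 fold change of 0.81 (edgeR, Benjamini-Hochberg adjusted p = 0.00322). HOXC10, expressed in hindlimb and lumbar segments, had 18 to 26 counts in the vector and 26 to 57 in the knockdown libraries. Its log2 fold change was 0.80 (edgeR, Benjamini-Hochberg adjusted p = 0.00949), but the adjusted p was 0.0551 without vector replicate 1 and 0.0963 without shMETTL3 replicate 2.

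In group 9, 1 tested member fell and 1 was not called. HOXB9 was the 1 posterior member that fell, from 15.2 to 19.8 CPM in the vector libraries to 9.82 to 12.6 CPM in the knockdown libraries. Its log2 fold change was -0.57 with a standard error of 0.11 (edgeR, Benjamini-Hochberg adjusted p = 4.91e-05). HOXC9 had 99 to 101 counts in the vector and 82 to 134 counts in the knockdown libraries, a log2 fold change of 0.03 that was not called. HOXA9 and HOXD9 had too few counts to be tested, with at most 3 and 9 in a library.

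Among the central members, paralogue group 6 was the one group in which tested members were called in opposite directions. HOXB6, at chr17:46673113-46682354 on the minus strand, fell, with 146, 151 and 169 counts with vector and 76, 91 and 62 counts in the knockdown libraries. That was 9.17 ± 1.12 CPM (SD, n = 3) against 4.12 ± 0.357 CPM (SD, n = 3), with no overlap between the groups. Its log2 fold change of -1.14 (standard error 0.14, edgeR, Benjamini-Hochberg adjusted p = 4.46e-08) was the lowest of the tested HOX genes.

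HOXC6, at chr12:54384408-54424607 on the plus strand, rose. It had 37, 37 and 45 counts with vector and 64, 81 and 45 counts in the knockdown libraries, or 2.34 ± 0.366 CPM (SD, n = 3) and 3.39 ± 0.606 CPM (SD, n = 3). The lowest knockdown library, at 2.83 CPM, was just above the highest vector library, at 2.76 CPM. The log2 fold change of 0.55 (edgeR, Benjamini-Hochberg adjusted p = 0.0176) no longer passed without vector replicate 1 (adjusted p = 0.0756), vector replicate 2 (0.0513) or shMETTL3 replicate 2 (0.132), or by DESeq2 (0.0571). HOXA6, the remaining paralogue, had 11, 10 and 11 counts in the vector and 17, 15 and 12 in the knockdown libraries, and its log2 fold change of 0.34 was not called (edgeR, Benjamini-Hochberg adjusted p = 0.416).

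HOXD8, at chr2:176994422-176997423 on the plus strand, had the highest level per exonic kilobase in the HOXD cluster and fell. It had 381, 355 and 359 counts with vector and 240, 257 and 192 counts in the knockdown libraries, or 21.5 ± 0.443 CPM (SD, n = 3) against 12.4 ± 0.363 CPM (SD, n = 3). Within each group the libraries lay close together and far from the other group, with a log2 fold change of -0.79 and a standard error of 0.08 (edgeR, Benjamini-Hochberg adjusted p = 4.48e-09). HOXB5, which takes part in branching of the lung, fell from 7.71 to 8.61 CPM in the vector libraries to 4.03 to 5.69 CPM in the knockdown libraries, with a log2 fold change of -0.75 (edgeR, Benjamini-Hochberg adjusted p = 3.60e-05). HOXC4 was called higher by a small margin, with a log2 fold change of 0.42 (edgeR, Benjamini-Hochberg adjusted p = 0.0371). Its call was lost in 4 of the 6 fits that leave out a library, without the filter on low counts and by DESeq2 (adjusted p = 0.0966). It held in 8 of 14 alternatives.

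HOXB7 was the most abundant HOX gene per exonic kilobase in both groups and was not called. It had 500, 446 and 455 counts with vector and 429, 520 and 423 counts in the knockdown libraries, or 27.5 ± 0.679 CPM (SD, n = 3) and 24.9 ± 2.37 CPM (SD, n = 3). In CPM the groups came within 26.6 and 26.7 of each other without overlapping, and the log2 fold change was -0.14 (edgeR, Benjamini-Hochberg adjusted p = 0.104), or 0.03 under scaling by library totals. HOXA5, a regulator of lung and airway development and the member with the highest level per exonic kilobase in the HOXA cluster, had 117, 99 and 72 counts in the vector and 103, 110 and 93 counts in the knockdown libraries. The groups overlapped at 5.61 ± 1.08 CPM (SD, n = 3) and 5.55 ± 0.269 CPM (SD, n = 3), and the log2 fold change was -0.02 with a standard error of 0.15, or 0.15 under scaling by library totals. The other central members that were tested and not called, HOXA7, HOXB4, HOXB8 and HOXC8, had log2 fold changes of 0.15, -0.45, 0.06 and 0.17.

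In the anterior groups, HOXB3, a gene of hindbrain and pharyngeal patterning, was lower in every knockdown library, at 8.96 to 11.5 CPM against 15.1 to 17.1 CPM in the vector libraries. Its log2 fold change was -0.69 with a standard error of 0.10 (edgeR, Benjamini-Hochberg adjusted p = 1.62e-06). The paralogue of HOXB3, HOXA3, fell less, by 0.32 on the log2 scale (edgeR, Benjamini-Hochberg adjusted p = 0.00733). The difference of HOXA3 was -0.15 and was not called when libraries were scaled by their totals alone (adjusted p = 0.206). HOXA2 had 42 to 58 counts in all libraries and a log2 fold change of -0.02, or 0.16 under scaling by library totals.

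The 15 members that were not tested had at most 15 counts in any library, and 9 of them had no more than 3 counts in every library. HOXB1, HOXC12 and HOXD4 were at 0 in all 6 libraries, and HOXD12 had a single count in 1 library. HOXA11 was at 0 in the vector libraries and had 1, 2 and 3 counts in the knockdown libraries, all at or under the floor. HOXC11 had 0, 0 and 1 counts with vector and 4 in each knockdown library. HOXA4 had 2, 5 and 5 counts against 8, 15 and 7. HOXB2, HOXC5, HOXD1, HOXD3 and HOXD11 had between 0 and 14 counts. Counts this low were left untested, which does not show that these genes did not differ.

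Counts and summed levels are given here by cluster, with no test between clusters. Of the tested members, 50% were called in HOXA, 62.5% in HOXB, 66.67% in HOXC and 100% in HOXD. Over all tested genes 66.6% were called, 33.7% higher and 32.9% lower. The HOXA cluster on chromosome 7 had 11 members, of which 8 were tested, 2 higher and 2 lower, and its summed level was 33.4 to 33.9 CPM in the vector and 32.0 to 35.8 CPM in the knockdown libraries, or 31.2 to 31.87 CPM and 34.3 to 37.63 CPM with library totals alone. Of the 10 HOXB members on chromosome 17, 8 were tested, with 1 higher and 4 lower, and the sum fell from 83.1 to 90.8 CPM to 65.2 to 73.3 CPM without overlap. The HOXC cluster on chromosome 12 had 9 members, of which 6 were tested, with 4 higher and none lower, and its sum went from 21.1 to 23.8 CPM up to 33.1 to 35.5 CPM. The 4 higher HOXC calls became 1, HOXC13, without shMETTL3 replicate 2, and 2 without vector replicate 1, without vector replicate 2 or by DESeq2. In the HOXD cluster on chromosome 2, HOXD8 and HOXD10 were the 2 tested members of 9, and its sum went from 21.8 to 23.02 CPM to 14.1 to 15.3 CPM, most of it HOXD8. The largest rise and the largest fall among tested HOX genes thus lay in 1 cluster, in HOXB13 and HOXB6. For the sums of the HOXB, HOXC and HOXD clusters, scaling by library totals gave the same directions.

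Compared per exonic kilobase, so that genes of unequal length can be ranked, HOXB7 led in both groups at 18.1 CPM per kb in the vector and 16.4 CPM per kb in the knockdown libraries. HOXD8 was second at 8.17 CPM per kb in the vector libraries and came after HOXC13 at 4.73 CPM per kb in the knockdown libraries. HOXC13 went from rank 7 at 3.47 CPM per kb to rank 2 at 7.09 CPM per kb. HOXB13 went from rank 19 to rank 10, HOXA13 from rank 24 to rank 16 and HOXD10 from rank 25 to rank 20 of 39, while HOXB6 went from rank 6 to rank 12. All group 10 and group 13 genes other than HOXC13 and HOXB13 stayed near or under 1 CPM per kb.

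Several members overlap other genes, and whether counting used strand is not given in the sources used here, so overlapping transcripts may not be separated. In the GENCODE annotation of GRCh37, HOXB13 overlaps no other exon, and HOXA13 overlaps HOTTIP on 1.7% of its exonic bases. HOXC13 overlaps its antisense transcript HOXC13-AS on 7.3%, HOXD8 overlaps HOXD-AS2 on 24.4%, and HOXB6 overlaps HOXB-AS3 on 16.3% and HOXB3 on the same strand. HOXC6 overlaps HOXC4, HOXC9 and a gene without a symbol on the same strand, on 16.1% of its exonic bases. HOXC4 overlaps HOXC6 and that same gene on 17.5%, so the calls of HOXC4 and HOXC6 may not be independent. On 18.2% of its exonic bases HOXD10 overlaps the same strand of HOXD11, which had at most 4 counts in a library. The most overlapped tested member was HOXA7, with 62.5% of its exonic bases opposite HOXA-AS3.

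Of 18 HOX cluster noncoding RNAs in the table, 8 were tested, with 2 higher and 2 lower, a called share of 50% against 66.6% of all tested genes. The median log2 fold change was -0.33, and it was -0.56 without HOXC13-AS and HOXB-AS4, the latter named after its values were seen, since these 2 passed the filter on low counts only through their knockdown libraries. The higher calls were 4 without the filter on low counts and 1 with at least 10 counts in every library. HOXC13-AS had 12, 8 and 10 counts in the vector and 51, 74 and 51 counts in the knockdown libraries, a log2 fold change of 2.42 (edgeR, Benjamini-Hochberg adjusted p = 1.27e-08). HAGLR, which runs opposite to HOXD1, had 103, 64 and 88 counts in the vector and 24, 35 and 26 counts in the knockdown libraries, a log2 fold change of -1.69 (edgeR, Benjamini-Hochberg adjusted p = 5.60e-08). HOTAIRM1, at the anterior end of the HOXA cluster, rose by 0.35 on the log2 scale (edgeR, Benjamini-Hochberg adjusted p = 0.00361). HOXB-AS3, outside the naming rule and named after its values were seen because it overlaps HOXB6, had a log2 fold change of -0.96 (edgeR, Benjamini-Hochberg adjusted p = 1.32e-05). HOTAIR, from the HOXC cluster, had 3, 0 and 0 counts against 7, 8 and 5, and HOTTIP, which lies next to HOXA13, had 0, 1 and 1 counts against 2, 3 and 2, and neither was tested.

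The genes flanking the clusters are given by cluster, with no test between clusters, and the shares over all tested genes were 33.7% higher and 32.9% lower. Beside the HOXB cluster, 8 of 10 listed genes were tested, with 7 higher, 1 lower and a median log2 fold change of 0.30. TTLL6, which lies beyond HOXB13 and encodes a tubulin-modifying enzyme, had 11, 12 and 15 counts in the vector and 73, 66 and 39 counts in the knockdown libraries, a log2 fold change of 2.09 (edgeR, Benjamini-Hochberg adjusted p = 1.01e-07) that was close to that of HOXB13. ATP5MC1, a subunit of the mitochondrial ATP synthase, fell by 0.73 on the log2 scale (edgeR, Benjamini-Hochberg adjusted p = 8.39e-11). Beside the HOXC cluster, 5 of 7 tested flanking genes fell and 1 rose, with a median of -0.21 and the largest fall in ATP5MC2 at -0.50. SMUG1, also there, had -0.26. Beside the HOXA cluster, 3 of 7 tested genes were higher and 2 lower, with SNX10 at 0.95 and JAZF1 at 0.44, and beside the HOXD cluster 1 of 6 was higher and 2 were lower, with ATP5MC3 at -0.44 and MTX2 at -0.29. The calls of JAZF1, SMUG1 and MTX2 were lost in at least 1 alternative each. Under scaling by library totals the lower calls were 1 beside each of the 4 clusters, and the higher calls beside the HOXA cluster were 5. The 1 higher call beside the HOXC cluster was lost under RLE scaling, without the filter, by DESeq2 and without each of vector replicate 1, vector replicate 2 and shMETTL3 replicate 2, and that beside the HOXD cluster was lost without shMETTL3 replicate 1. Without vector replicate 3, 3 genes beside the HOXD cluster were lower. The higher calls beside the HOXA cluster were 2 without the filter, by DESeq2 and in each fit that leaves out a library other than vector replicate 2. EVX1, EVX2 and PRAC1, which lie at the posterior ends of the HOXA, HOXD and HOXB clusters, had no more than 2 counts in any library.

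HOX proteins bind DNA together with TALE homeodomain cofactors of the PBX and MEIS families. Of 9 such genes, 7 were tested, with 2 higher and 2 lower, and their median log2 fold change was -0.11. The called share was 57.1% against 66.6% of all tested genes. MEIS2 had 456, 396 and 405 counts with vector and 224, 233 and 164 counts in the knockdown libraries, a log2 fold change of -1.13 (edgeR, Benjamini-Hochberg adjusted p = 4.37e-12), and MEIS1 fell by 0.71. PBX3 had 79, 103 and 87 counts with vector and 153, 183 and 156 counts in the knockdown libraries, and rose by 0.76 on the log2 scale (edgeR, Benjamini-Hochberg adjusted p = 2.90e-05). MEIS3, named after its values were seen, had 676 to 730 counts with vector and 723 to 837 in the knockdown libraries, and its log2 fold change of 0.05 was not called.

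The best known regulators of HOX chromatin are the Polycomb proteins, which keep HOX genes silent, and the Trithorax and MLL proteins, which keep them active. Of 25 tested Polycomb genes, 10 were higher and 7 lower, with a median log2 fold change of 0.11. Those called, 68.0% of the tested, were near the share of all tested genes, and scaling by library totals gave 14 higher and 4 lower. EZH2, the methyltransferase of Polycomb repressive complex 2, had 689, 524 and 564 counts with vector and 388, 407 and 300 in the knockdown libraries, a log2 fold change of -0.81 (edgeR, Benjamini-Hochberg adjusted p = 7.03e-10), whereas PCGF6, of Polycomb repressive complex 1, rose by 0.71. Of 18 tested Trithorax and MLL genes, 6 were higher and 9 lower, a called share of 83.3% against 66.6% of all tested genes, with a median log2 fold change of -0.08. The balance rests on the scaling, since library totals gave 9 higher and 4 lower, and without vector replicate 2 or shMETTL3 replicate 2 the higher calls were 3. KMT2A, the MLL1 methyltransferase, rose by 0.19, and its partner MEN1 fell by 0.23. Neither call held in every fit, since KMT2A did not pass without vector replicate 2 (0.17) or shMETTL3 replicate 2 (0.14), and MEN1 did not pass under scaling by library totals (-0.06). AFF1, a scaffold of the super elongation complex, fell by 1.49, and DOT1L, the histone H3 lysine 79 methyltransferase, fell by 0.93.

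Retinoic acid and the CDX factors set HOX expression in embryos. Of 19 genes listed for these, 9 were tested, with 5 higher and 2 lower, and the called share of 77.8% stood beside 66.6% of all tested genes. The median log2 fold change was 0.63, and 0.35 without CRABP2. ALDH1A3, which makes retinoic acid, had 18, 25 and 15 counts with vector and 290, 342 and 244 in the knockdown libraries, a log2 fold change of 3.79 (edgeR, Benjamini-Hochberg adjusted p = 2.07e-17). CRABP2, which carries retinoic acid to its receptors, had 8 to 9 counts in the vector and 39 to 65 in the knockdown libraries, a log2 fold change of 2.34 (edgeR, Benjamini-Hochberg adjusted p = 1.34e-07). CRABP2 passed the filter only through its knockdown libraries, and with at least 10 counts in every library the higher calls of the list were 4. The retinoic acid receptor gene RARB fell by 0.37 (edgeR, Benjamini-Hochberg adjusted p = 1.93e-05), as did RARG by 0.80, whereas RXRA, STRA6 and DHRS3 rose by 1.29, 0.63 and 0.79 on the log2 scale, the last 4 named after their values were seen so that all called genes of the list are given. CDX1 and CDX4 were at 0 in all libraries, and CDX2 had at most 6 counts.

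The m6A mark is written mostly within a short consensus, of which GGACT is a common form. On the sense strand of the canonical GENCODE transcripts, the median number of GGACT words per kilobase was 1.12 over the 24 tested HOX genes and 0.92 over 13434 tested genes with a transcript. It was 1.19 over the 8 HOX genes called higher, 0.39 over the 7 called lower and 1.20 over the 9 not called. Over all tested genes the order was the other way, with 0.89 for those called higher and 0.97 for those called lower. Per kilobase, the higher genes HOXB13, HOXD10, HOXA13 and HOXC13 had 2.3, 1.68, 1.2 and 0.424 such words, and the lower genes HOXB6 and HOXD8 had 1.79 and 0.382. The word was missing from 2 of the 24 tested HOX transcripts and from 1302 of the 13434 transcripts. A word is not a methylated site, and m6A was not measured in these libraries.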

How the data were processed

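RNA-seq counts per gene were used for 6 A549 libraries, grouped and numbered by their titles. The authors mapped reads to hg19 with HISAT2 and counted them with HTSeq (versions 2.2.1 and 0.13.5 in the submitters' processing notes, with cutadapt 3.0 and SAMtools 1.13; the study's methods name earlier HISAT2 and HTSeq versions), and deposited whole-number counts without normalization. The gene annotation and the strand setting are not given in the sources used here. Columns were matched to titles by group and number.

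In R 4.3.3, edgeR 4.0.16 was used with its quasi-likelihood functions (glmQLFit, glmQLFTest), after TMM scaling and filterByExpr, with group as the single term and Benjamini-Hochberg adjustment over 15125 genes. Alternatives used DESeq2 1.42.0, limma-voom (limma 3.58.1), other scalings, filters and thresholds, a replicate block and each library left out. Standard errors come from the coefficient and the F statistic. Sequences and positions came from GRCh37 and its GENCODE annotation. Medians without genes that passed filterByExpr only through the knockdown libraries were added after seeing the data. The functions were tested on simulated data. No 2 libraries of a group agreed within sampling noise (chi-square per degree of freedom 2.64 to 6.91).

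The members and lists were chosen with earlier results of these data known. Values for every library are given for called members with a log2 change of at least 1, the member with the highest level per exonic kilobase in each cluster, and paralogue groups with opposite calls. From the lists, fixed genes and up to 2 called genes with the largest change and a mean log2 CPM of at least 0 are named. Some items are not reported here, among them the values of 1 member, which still counts in the totals.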

Additional observations from a re-analysis of the deposited data

How the results depend on the processing

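HOX genes have few counts, which limits what could be called: at most 520 counts fell on 1 member in a library, and 15 members were not tested. Of 334 values of single HOX genes under 14 alternatives, 306 kept their direction and their side of the threshold, 13 kept the direction but no longer passed and 15 turned in sign, all of genes that were not called. These were HOXA2 (0.01 under upper-quartile scaling, 0.16 under scaling by library totals, 0.00 with at least 10 counts in every library, and -0.11 to 0.04 when a library was left out), HOXA5 (0.15 by library totals and -0.17 to 0.09 when a library was left out), HOXB7 (0.03 by library totals), HOXC8 (-0.03 to 0.55) and HOXC9 (-0.06 to 0.11), the last 2 also when a library was left out. Under scaling by library totals the median was 0.18 over all genes and 0.22 over HOX genes on the log2 scale. It raised the share of higher calls among all calls from 50.6% to 65.8% and left 1 HOXA gene called lower. With a minimum change of 1 on the log2 scale, 2668 of all genes and 5 HOX genes were called, 4 higher and 1 lower. By cluster these were 1 higher and 0 lower in HOXA, 1 higher and 1 lower in HOXB, 1 higher and 0 lower in HOXC and 1 higher and 0 lower in HOXD, and by position 0 in the anterior groups, 0 higher and 1 lower in the central groups, and 4 higher and 0 lower in the posterior groups. DESeq2 called 9234 genes, with 2 higher in HOXC and 0 higher in the central groups. Without the filter 1 central gene was higher, and with at least 10 counts in every library no HOXD gene was called higher (0), because HOXD10 was not tested. Leaving out 1 library gave 9410 to 10072 calls over all genes, 12 to 15 HOX genes, 5 to 8 higher, 1 to 4 higher in HOXC, 0 to 2 higher in the central groups, 5 to 6 higher in the posterior groups and a HOX median between -0.01 and 0.05, where -0.01 was reached without shMETTL3 replicate 2 and without replicate 3. Apart from HOXD10, the cause was not tested.

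No pairing of the libraries by replicate number was seen, as deviations from the group means correlated at 0.05, -0.01 and 0.03 for the same numbers. With so few libraries in a group, these values cannot exclude a pairing. With the replicate number as a block, 10111 of all genes and 15 HOX genes were called, 8 higher and 7 lower.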
